A study of Mus musculus with 16 samples.

Results

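The transcripts of 9 genes that make or mark the macrophage lineage were followed in mouse bone marrow-derived macrophages (BMDMs): the transcription factor genes Spi1, Cebpa, Cebpb and Cebpd, the receptor gene Csf1r, and the marker genes Itgam, Cd68, Lyz2 and Mrc1. They were chosen by symbol, and 8 of the 9 were found among the 14925 genes with a counted 3′-UTR. No counted region carried the symbol Cebpd. One wild-type culture, numbered 76 (WT), and one culture from total Cpeb4 knockout mice, numbered 73 (Cpeb4-/-), were compared, both of the strain labelled C57BL/6J 129. Marrow from the femurs of adult mice had been grown for 7 days with L-cell conditioned medium as the source of M-CSF. Per the study's methods, the medium was changed on day 7 to one listed without L-cell conditioned medium. From day 8 the cells were left untreated or exposed for 9 h to 10 ng/ml of lipopolysaccharide (LPS), a bacterial cell wall component that activates macrophages. Total lysate RNA depleted of ribosomal RNA (Input) and RNA pulled down with an anti-CPEB4 antibody (RIP) were sequenced from each. CPEB4 recognises U-rich sites near the ends of mRNAs, named cytoplasmic polyadenylation elements (CPEs), and the Cpeb4-/- RIP was made as the background of the pull-down.

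Each genotype, treatment and assay was a single library, run on 2 lanes, so that none of the differences below has a replicate check and no p-value is given. One culture stood for each genotype, and genotype and culture cannot be told apart. Levels are reads of a gene per 1000000 3′-UTR reads of a library (CPM). Ratios are log2 values, with 1 read added to each count and a 95% interval that covers counting error only. A gene was called higher or lower at a ratio of at least 2-fold, which is 1 on the log2 scale, if the pair of libraries held at least 50 of its reads. Depth was between 467696 and 2492300 3′-UTR reads per library. Of the 13 macrophage markers listed, 12 were found, with summed Input levels from 3601 to 5174 CPM. These included the members Csf1r, Itgam, Cd68 and Lyz2, and Lyz2 alone was at 2365 CPM in untreated WT Input. For other cell types, 4 of 11 neutrophil, 5 of 7 dendritic, 4 of 6 T and 3 of 6 B cell markers were found. For NK, mast, erythroid and fibroblast cells, 1 of 4, 1 of 5, 2 of 7 and 3 of 6 were found. The neutrophil markers found summed to at most 6.46 CPM in an Input and each other list to at most 3.33 CPM. No gene of these lists of other cell types had more than 8 reads in an Input. Genes without a counted region could not add to these sums. Cpeb4 itself had 121 and 258 reads in the WT Inputs (untreated and LPS) and 69 and 79 reads in the Cpeb4-/- Inputs, and its RIP reads were 1392 and 1920 in WT against 120 and 320 in Cpeb4-/- cells. Its log2 ratio of RIP over Input was 2.29 (1.87 to 2.72) and 2.79 (2.44 to 3.14) in Cpeb4-/- cells and, in WT, 2.67 (2.40 to 2.94) and 2.5 (2.31 to 2.68), with overlapping intervals, and its Input-corrected ratio of WT over Cpeb4-/- RIP was 0.38 (-0.12 to 0.88) and -0.29 (-0.69 to 0.11). Which stretch of the gene the knockout removes is not given in the sources used here, so reads of its 3′-UTR check the labels only in part.

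PU.1, the product of Spi1, opens the enhancers that macrophages use and drives Csf1r, the gene of the M-CSF receptor on which these cells depend for survival. C/EBPα, from Cebpa, works with PU.1 in the early myeloid programme, and C/EBPβ and C/EBPδ, from Cebpb and Cebpd, are linked to inflammatory activation. Itgam encodes CD11b, the α chain of an adhesion and complement receptor. Cd68 encodes a lysosomal membrane glycoprotein, Lyz2 the secreted bacteria-degrading enzyme lysozyme M, and Mrc1 the mannose receptor CD206, which takes up glycoproteins and is known as a marker of resting and IL-4-activated macrophages.

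The 8 regions are annotated 3′-UTRs in build mm10, and they differ in length and in CPE content. A CPE was counted where the DNA strand of the transcript read TTTTAT or TTTTAAT, or one of the rarer forms TTTTACT and TTTTCAT or the longer TTTTAAAT and TTTTAAGT. Cebpa, Itgam and Mrc1 had 2 CPEs each, Cebpb and Cd68 had 1 each, and Spi1, Csf1r and Lyz2 had 0. Of all 3′-UTR regions within 20% of the same length, 79.1% held a CPE for Cebpa, 72.9% for Itgam, 67.3% for Mrc1, 49.0% for Cebpb, 21.0% for Cd68, 39.2% for Spi1, 83.8% for Csf1r and 65.2% for Lyz2. The windows below are shown because CPEs act together with the polyadenylation signal (AATAAA or ATTAAA) near the end of an mRNA. The first 4 hold a CPE and a signal, the next pair are the CPEs of Cebpa, and the last is the TTTTGT of Spi1, a related G-containing form. Capitals mark these motifs.
Mrc1, chr2:14331909-14331938 (+): aaaATTAAAgatgacatctaTTTTAATttt
Itgam, chr7:128118318-128118347 (+): tctTTTTATtaatatgctcaAATAAAttta
Cd68, chr11:69664230-69664259 (-): TTTTATaataggggtggggaatcAATAAAc
Cebpb, chr2:167690374-167690403 (+): agtgaagacaTTTTAATAAActtttttgga
Cebpa, chr7:35120843-35120872 (+): tgtgccttgataTTTTATttggaggattcc
Cebpa, chr7:35121469-35121498 (+): gctaaaccaccaTTTTATttggtcttttgt
Spi1, chr2:91115653-91115682 (+): gcgctggcacctTTTTGTatattgaatgct
In Cebpb the CPE and the signal shared letters, with the signal starting 4 bases after the CPE, and in Itgam and Cd68 the signal started 17 and 23 bases after it. In Mrc1 the nearest signal started 17 bases before the CPE. The signals shown for Mrc1 and Itgam were not the last of their regions, with 140 and 148 bases after them. A later AATAAA had 49 bases after it in Mrc1 and 20 in Itgam. The Cebpa and Spi1 regions held 0 signals, in contrast to 93.6% and 81.4% of regions of similar length. Cebpb held 6 copies of TTTTGT, and Mrc1 and Itgam held 5 copies each of ATTTA, the core of AU-rich elements.

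In untreated WT Input, Lyz2 was the most abundant member per length, at 3005 CPM per kb (95% counting interval 2880 to 3133). Spi1 followed at 529 CPM per kb, then Cd68 at 409, Csf1r at 394 and Cebpb at 394, and each of these overlapped with its neighbour in counting error. Cebpa was at 313, Itgam at 238 and Mrc1 at 22.0 CPM per kb. By this measure Itgam and Mrc1 stood below the member before them by more than counting error. Reads that overlapped a region were counted, so division by length raises short regions such as Cd68, of 158 bases. Per possible start position of reads of 100 bases, Cd68 held 0.117 reads, below Spi1 (0.193), Csf1r (0.173), Cebpb (0.153) and Cebpa (0.136). In LPS-treated WT Input, Lyz2 was at 1627 CPM per kb and Cebpb, at 943, had moved to the next place above Spi1, at 577. Cebpa, at 48.7, and Mrc1, at 3.59 CPM per kb, were then the last of the 8. Per length, LPS-treated Cpeb4-/- Input had the same order of the 8 members, from Lyz2 at 1677, Cebpb at 1192 and Spi1 at 684 down to Cebpa at 50.3 and Mrc1 at 2.26 CPM per kb. Per start position, Cd68 held 0.183 reads in LPS-treated WT Input, below Itgam (0.248) and Csf1r (0.191). In LPS-treated Cpeb4-/- Input it held 0.160, between Itgam (0.184) and Csf1r (0.146).

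**Figure D1:**
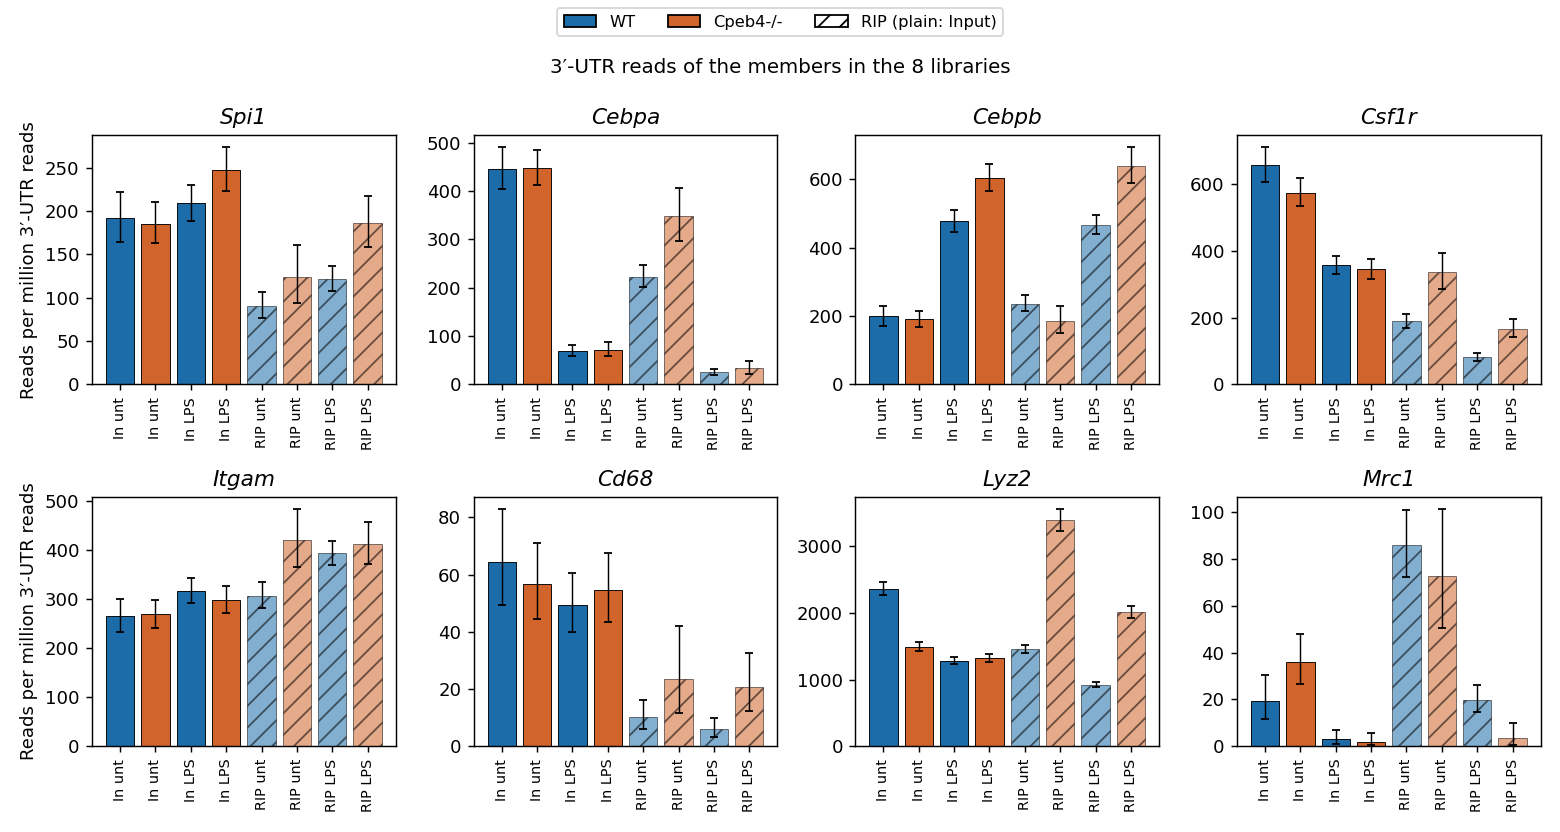
Level of each member in CPM (vertical axes, each from 0) in the 8 libraries, with WT in blue, Cpeb4-/- in orange, Input plain and RIP hatched; bars are single libraries and lines are 95% counting intervals. Cebpa and Mrc1 are lower and Cebpb is higher in the LPS libraries than in the untreated ones of the same genotype and assay, and Lyz2 is highest in the untreated Cpeb4-/- RIP, at 3393 CPM.

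After LPS, Cebpb was called higher and Cebpa lower in both genotypes, and Mrc1 was called lower in Cpeb4-/- cells and had too few reads to be tested in WT. Csf1r in both genotypes and Lyz2 in WT had ratios from -0.89 to -0.74, short of 2-fold, and Spi1, Itgam and Cd68 stayed within 1.5-fold. In Input, 14.9% of all 4981 tested genes were at least 2-fold higher and 12.6% were at least 2-fold lower after LPS in WT, and 13.6% and 17.4% of 5010 genes in Cpeb4-/- cells. With TMM scaling the last pair was 17.4% and 13.2%. Against that background, 1 member was called higher and 1 lower of 7 tested in WT, and 1 higher and 2 lower of 8 tested in Cpeb4-/- cells. In bulk RNA, fewer cells with a transcript and less of it per cell cannot be told apart.

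Cebpa had 415 reads in untreated and 132 in LPS-treated WT Input, and 593 and 108 reads in the Cpeb4-/- Inputs. As levels these were 447 and 69.6 CPM in WT and 447 and 71.9 CPM in Cpeb4-/- cells. The log2 ratio of LPS over untreated was -2.68 (-2.96 to -2.39) in WT and -2.63 (-2.92 to -2.33) in Cpeb4-/- cells, and 1.57% and 2.40% of tested genes had a lower ratio. Cebpb had 185 and 905 reads in the WT Inputs and 253 and 906 in the Cpeb4-/- Inputs. Its log2 ratio was 1.25 (1.03 to 1.48) in WT and 1.66 (1.46 to 1.86) in Cpeb4-/- cells. Per length, the levels of Cebpb and Cebpa in untreated WT Input, 394 and 313 CPM per kb, overlapped in counting error, and after LPS they were 943 and 48.7 CPM per kb. The difference between the genotypes in the change of Cebpb, Cpeb4-/- minus WT, was 0.40 (0.10 to 0.71), and 14.7% of 4730 genes had a larger one. For Cebpa it was 0.05 (-0.36 to 0.46).

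Cebpd was not analysed here for lack of a row of its own. In the annotation its 3′-UTR lies at chr16:15888129-15891031 on the plus strand, and the only counted region inside it, of 403 bases, is assigned to Spidr on the minus strand. That region held 5 and 14 reads in the WT Inputs and 7 and 10 in the Cpeb4-/- Inputs (untreated and LPS), and these reads cannot be assigned to either gene. Spi1 had 178 and 396 reads in the WT Inputs and 246 and 372 in the Cpeb4-/- Inputs. Its log2 ratio of LPS over untreated was 0.12 (-0.14 to 0.37) in WT and 0.41 (0.18 to 0.65) in Cpeb4-/- cells.

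Csf1r had 611 and 676 reads in the WT Inputs and 762 and 518 in the Cpeb4-/- Inputs, or 658 and 356 CPM in WT and 575 and 345 CPM in Cpeb4-/- cells. The log2 ratio was -0.88 (-1.04 to -0.73) in WT and -0.74 (-0.90 to -0.58) in Cpeb4-/- cells, short of 2-fold in both. Of the 1669 bases of this region, at chr18:61130481-61132149, 873 lie within Hmgxb3 on the other strand. A shorter Csf1r region of 654 bases, which ends before that overlap, gave -0.92 in WT and -0.79 in Cpeb4-/- cells. Some receptor genes for other colony-stimulating factors were higher after LPS. Csf2rb, the shared β chain of the GM-CSF, IL-3 and IL-5 receptors, had 227 and 1407 reads in the WT Inputs and 371 and 1045 in the Cpeb4-/- Inputs, with log2 ratios of 1.60 and 1.31. Its reads may be divided with its close paralogue. Csf3r, the G-CSF receptor gene, was at 1.2 in WT and 1.31 in Cpeb4-/- cells. Of the 10 other colony-stimulating factor and receptor genes found, 5 could be tested in WT and 4 in Cpeb4-/- cells. In these, 3 and 2 were called higher and 0 lower. Over all genes, 14.9% were higher and 12.6% lower in WT, and 13.6% and 17.4% in Cpeb4-/- cells. Among the WT calls, a gene had 105 reads after LPS and 0 before it, so that it was tested through the LPS library alone.

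Among the surface and lysosomal markers, Mrc1 had few reads, and all libraries of LPS-treated cells had fewer CPM than the untreated library of the same genotype and assay. Its Input reads were 18 and 6 in WT and 48 and 3 in Cpeb4-/- cells, at 19.4 and 3.16 CPM in WT and at 36.2 and 2.0 CPM in Cpeb4-/- cells. The log2 ratio was -2.47 (-3.72 to -1.22) in WT, where the pair had under 50 reads, and -3.79 (-5.27 to -2.32) in Cpeb4-/- cells. The counting intervals of the genotypes overlapped, with a difference of -1.32 (-3.25 to 0.61). Itgam, with 246 and 602 WT reads and 356 and 447 Cpeb4-/- reads, had ratios of 0.26 (0.04 to 0.47) and 0.15 (-0.05 to 0.35). Cd68, with 60 and 94 WT reads and 75 and 82 Cpeb4-/- reads, had ratios of -0.39 (-0.85 to 0.07) and -0.05 (-0.50 to 0.40). The Itgam region, at chr7:128117378-128118491, also lies in a second annotated gene on the same strand, Gm49368.

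Lyz2 had 2197 and 2429 reads in the WT Inputs and 1977 and 1983 in the Cpeb4-/- Inputs. Its level was 2365 CPM in untreated WT and between 1280 and 1491 CPM in the other Inputs, so that its ratio was -0.89 (-0.97 to -0.80) in WT and -0.18 (-0.27 to -0.09) in Cpeb4-/- cells. The difference, 0.71 (0.59 to 0.83), was exceeded by 4.63% of genes. Duplicate reads had been removed, which limits how many reads can be kept at one start position. With reads of 100 bases, 1772 start positions on both strands can give a read that overlaps the 787 bases of Lyz2, and its reads per position were between 0.896 and 1.37 in the 8 libraries. Lyz2 ranked from 1 to 4 by this measure among 14190 regions of at least 100 bases. Its reads varied 1.53-fold between libraries while the 3′-UTR reads of the libraries varied 5.33-fold. Cebpb reached 0.748 and 0.749 reads per position in the LPS Inputs and 0.962 in the WT LPS RIP, and the other members stayed at or below 0.430. The CPM of Lyz2 was highest in the smallest library, the untreated Cpeb4-/- RIP (3393 CPM), and lowest in the largest, the WT LPS RIP (919 CPM). The part of duplicate removal in the ratios of Lyz2 was not tested. Lyz2 was also 96.1% identical to its neighbour Lyz1 over the aligned 3′-UTRs, with 29 mismatches, and 5 of its 688 windows of 100 bases were found whole in Lyz1, which had from 17 to 105 reads.

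**Figure D2:**
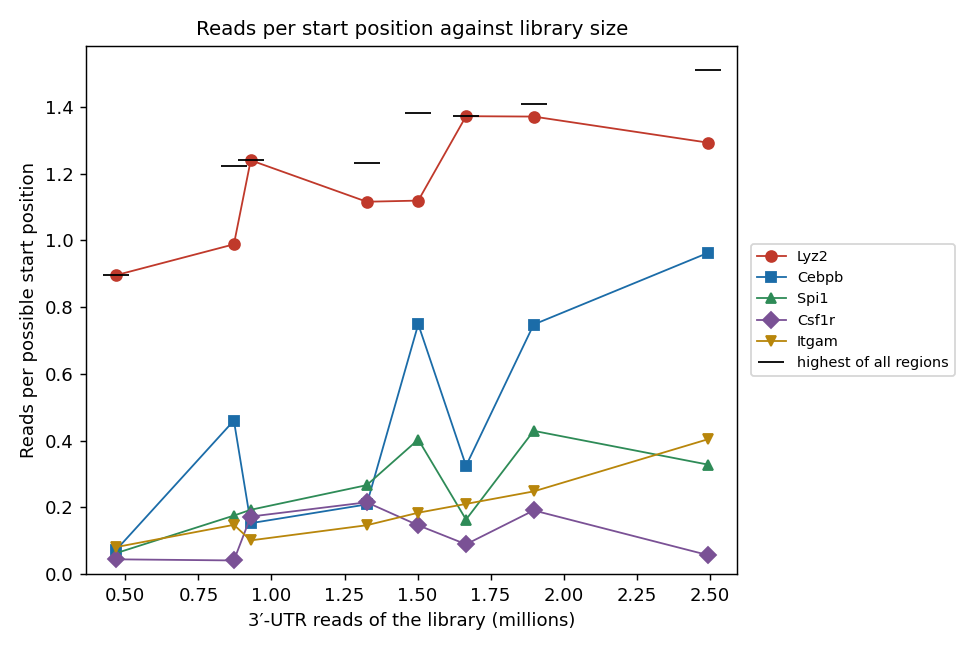
Reads per possible start position (vertical axis) of 5 members against the 3′-UTR reads of the library in units of 1000000 (horizontal axis), 1 point per library, with the highest value of any region as a black dash. Lyz2 lies at or near the highest value of any region in every library, between 0.896 and 1.37, and does not follow library size the way Itgam does.

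**Figure D3:**
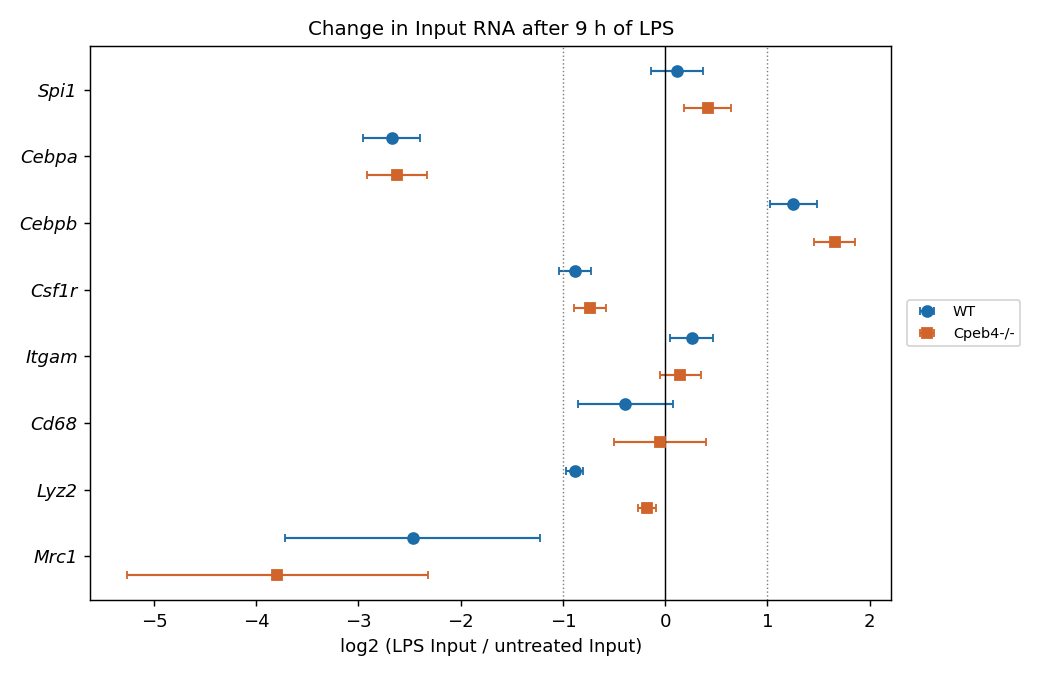
Log2 ratio of LPS over untreated Input (horizontal axis) for each member, with WT as blue circles and Cpeb4-/- as orange squares; bars are 95% counting intervals and dotted lines mark 2-fold. Cebpb lies right of the 2-fold line and Cebpa and Mrc1 left of it in both genotypes.

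The Inputs were compared between genotypes to see whether the loss of Cpeb4 went with a change in lineage transcripts. No member was called in untreated cells (0 of 8 tested) or after LPS (0 of 7 tested). Of all tested genes, 0.398% were at least 2-fold higher and 1.15% at least 2-fold lower in WT than in Cpeb4-/- cells before LPS, and 0.946% and 0.656% after LPS. With median-of-ratios scaling the last pair was 0.637% and 1.0%. In untreated cells, the ratios of WT over Cpeb4-/- were between -0.02 and 0.20 for Spi1, Cebpa, Cebpb, Csf1r, Itgam and Cd68. Lyz2 was at 0.67 (0.58 to 0.75), with 2.32% of genes above it, and Mrc1 was at -0.85 (-1.62 to -0.09), from 18 and 48 reads. After LPS, Cebpb was at -0.34 (-0.47 to -0.21) and Spi1 at -0.25 (-0.45 to -0.04). The remaining members with 50 or more reads were between -0.14 and 0.09. Cpeb4 itself was at 1.31 before and 1.36 after LPS.

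In the WT RIP, Mrc1 was over-represented and Csf1r and Cd68 were under-represented relative to Input in both treatments. Of all tested genes, 25.3% were at least 2-fold higher and 20% at least 2-fold lower in the untreated WT RIP than in its Input, and 23.7% and 24.9% after LPS. Scaled to the library totals, the last pair was 36.2% and 14.6%. Members were called higher 1 time and lower 3 times of 8 tested in each WT pair. In the Cpeb4-/- pairs, 10.9% of genes were higher and 12.7% lower before LPS, and 11.8% and 12.2% after LPS, but 2.39% and 45.7%, and 3.22% and 40.7%, scaled to the library totals. There, 2 members were higher and 1 lower of 8 tested before LPS, and 0 were higher and 3 lower of 7 tested after LPS.

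Mrc1 had 143 reads in the untreated WT RIP and 49 in the LPS one, against the 18 and 6 reads of the Inputs. Its log2 ratio of RIP over Input was 2.08 (1.39 to 2.77) before and 2.44 (1.3 to 3.58) after LPS, with 7.74% and 3.15% of genes above it. In Cpeb4-/- cells the untreated RIP still held 34 reads, at a ratio of 1.02 (0.39 to 1.64), and the LPS RIP held 3 reads, as many as its Input. Untreated Mrc1 was thus past 2-fold over Input in both genotypes with 3′-UTR scaling, but the Cpeb4-/- call was lost with the other scalings, at 0.25 with library totals, 0.92 with TMM and 0.96 with median-of-ratios.

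Csf1r had 317 and 204 reads in the WT RIPs and 158 and 146 in the Cpeb4-/- RIPs. The ratio to Input was -1.79 (-1.98 to -1.59) and -2.12 (-2.34 to -1.89) in WT, against -0.76 (-1.01 to -0.51) and -1.03 (-1.3 to -0.77) in Cpeb4-/- cells. Cd68 had 17 and 15 reads in the WT RIPs and 11 and 18 in the Cpeb4-/- RIPs. Its ratios were -2.60 (-3.36 to -1.84) and -2.96 (-3.73 to -2.20) in WT and -1.16 (-2.04 to -0.28) and -1.34 (-2.06 to -0.62) in Cpeb4-/- cells. Both genes were below Input in all 4 pairs, and in WT only 0.458% and 0.613% of genes had a ratio below that of Cd68, and its region holds a CPE followed by a polyadenylation signal.

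Scaled to 3′-UTR reads, the transcription factor genes were at or below Input in the RIPs. Spi1, with 151 and 303 WT RIP reads, had ratios of -1.08 (-1.39 to -0.77) and -0.78 (-0.99 to -0.56) in WT, and -0.56 and -0.41 in Cpeb4-/- cells. Cebpa, with 372 and 62 WT RIP reads, was at -1.0 (-1.2 to -0.80) and -1.47 (-1.90 to -1.04) in WT, and at -0.35 and -1.08 in Cpeb4-/- cells. In untreated WT cells it lay at the edge of the 2-fold rule and was not called. With library totals, Cebpa was not called in WT after LPS either, at -0.96, and in Cpeb4-/- cells Spi1, at -1.33 and -1.09, and Cebpa, at -1.12 and -1.76, were called lower in both treatments. Cebpb, with 393 and 1164 WT RIP reads, had ratios from -0.03 to 0.24 in the 4 pairs, with every interval including 0. With library totals no interval did, and Cebpb lay above Input in WT, at 0.30 (0.05 to 0.56) and 0.48 (0.36 to 0.61), and below it in Cpeb4-/- cells, at -0.79 (-1.14 to -0.44) and -0.60 (-0.75 to -0.45). Itgam, with 511 and 980 WT RIP reads, lay above Input in all 4 pairs, at 0.21 (-0.01 to 0.43) and 0.31 (0.16 to 0.45) in WT and 0.65 (0.40 to 0.90) and 0.47 (0.27 to 0.67) in Cpeb4-/- cells. With library totals, the Cpeb4-/- values of Itgam were -0.11 and -0.21.

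Lyz2 had 2431 and 2291 reads in the WT RIPs and 1587 and 1751 in the Cpeb4-/- RIPs. It lay below Input in WT, at -0.70 (-0.78 to -0.61) and -0.48 (-0.56 to -0.40), and above Input in Cpeb4-/- cells, at 1.19 (1.09 to 1.28) and 0.61 (0.51 to 0.70). With library totals, the first of these was no longer called, at 0.42. The Cpeb4-/- RIPs were the smallest libraries, and Lyz2 held 0.896 and 0.988 reads per start position there. Across all tested genes, the ratio of RIP over Input was lower in 3′-UTRs of higher GC content, with a Pearson r across genes of -0.75 in untreated WT (n = 5026) and -0.63 in untreated Cpeb4-/- cells (n = 4136), where genes share libraries and are not independent replicates. For WT over Cpeb4-/- RIP this r was -0.25 before LPS (n = 4559) and -0.41 after LPS (n = 5179). Mrc1, highest in the WT RIPs, had the lowest GC content of the members, 32.2%, and Itgam had 40.5%. Cd68, lowest in the WT RIPs, had 45.6%, Lyz2 46.8%, Cebpb 53.8%, Csf1r 54.3%, Cebpa 54.7% and Spi1 63.0%. The part of base composition in these ratios was not tested.

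**Figure D4:**
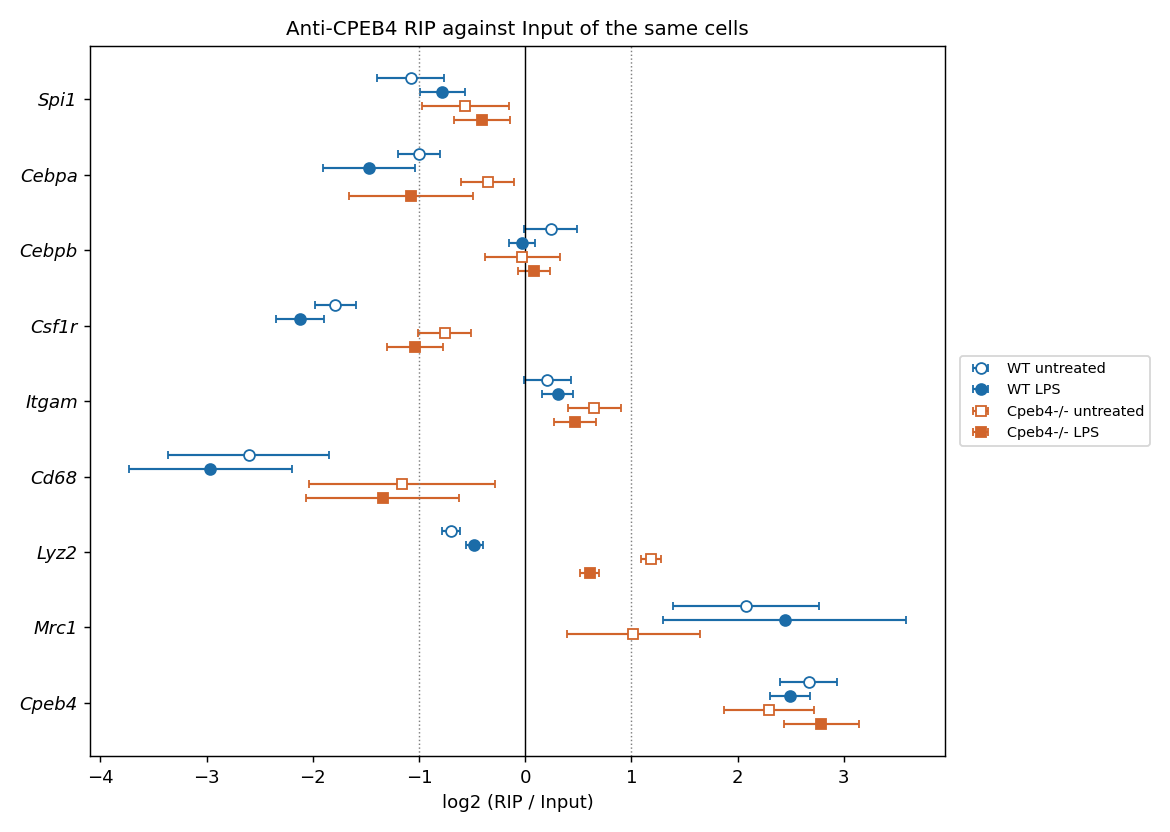
Log2 ratio of RIP over Input (horizontal axis) for each member and Cpeb4, with WT as blue circles and Cpeb4-/- as orange squares, open for untreated and filled for LPS; bars are 95% counting intervals and dotted lines mark 2-fold. Csf1r and Cd68 lie further left in WT than in Cpeb4-/- cells and Lyz2 lies on opposite sides of 0; Mrc1 in LPS-treated Cpeb4-/- cells, with 3 reads in both libraries, is not drawn.

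The comparison of WT with Cpeb4-/- RIPs asks which mRNAs were recovered through CPEB4. Its zero point depends on the scaling, because 3′-UTR reads made up 48.9% and 70.1% of the library totals implied by the deposited RPKM values in the WT RIPs (untreated and LPS) and 27.3% and 31.8% in the Cpeb4-/- RIPs. Scaled to 3′-UTR reads, 10.3% of all tested genes were at least 2-fold higher and 7.22% at least 2-fold lower in the untreated WT RIP, and 10.2% and 9.81% after LPS. Scaled to the library totals, 45.3% were higher and 0.197% lower before LPS, and 63.2% and 0.405% after LPS, with all log2 ratios moved up by 0.84 and 1.14. The place of a gene among all tested genes does not depend on this choice and is given for each member below.

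Most members lay in the lower part of the distribution over all genes. Scaled to 3′-UTR reads, 0 of 7 tested members were higher and 1 was lower before LPS, and 1 was higher and 2 were lower of 7 after LPS. The median over the 8 members was -0.56 before and -0.54 after LPS, against 0.07 and 0.13 over all tested genes. Lyz2 was at -1.22 (-1.31 to -1.13) and -1.13 (-1.22 to -1.04), with 3.93% and 7.82% of genes below it. Csf1r was at -0.83 (-1.11 to -0.56) and -1.04 (-1.34 to -0.73), with 10.8% and 9.15% of genes below it. Scaled to the library totals, Csf1r was at 0.0092 and 0.10 and Lyz2 at -0.38 and 0.013, so that neither was called. The shorter Csf1r region gave -0.96 and -1.03 with 3′-UTR scaling. Cd68 had under 50 reads in both pairs, at -1.25 (-2.30 to -0.19) and -1.76 (-2.72 to -0.80), with 3.47% and 1.47% of genes below it.

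Scaled to 3′-UTR reads, Mrc1 was the one member called higher, after LPS. With 143 against 34 RIP reads before LPS its ratio of WT over Cpeb4-/- was 0.21 (-0.32 to 0.74), with 42.6% of genes above it, and 1.05 with library totals. With 49 against 3 reads after LPS the ratio was 2.13 (0.66 to 3.60), with 0.270% of genes above it. The change between treatments was 1.92 (0.36 to 3.48). The Cpeb4-/- value rests on 3 reads, and a minimum of 200 reads left Mrc1 untested.

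Cebpb went from 0.33 (-0.003 to 0.66) before LPS to -0.45 (-0.60 to -0.31) after LPS, a change of -0.78 (-1.15 to -0.42), and 5.84% of 4163 genes had a lower one. Of all tested genes, 63.9% lay below it before and 24.2% after LPS. With 1164 and 557 reads after LPS, the WT RIP was the library with the most Cebpb reads per start position, 0.962, and the part of duplicate removal in this change was not tested. Itgam went from -0.46 (-0.70 to -0.23) to -0.07 (-0.24 to 0.10), with 23.7% and 40.2% of genes below it. Spi1 was at -0.47 (-0.90 to -0.03) and -0.62 (-0.89 to -0.34), with 23.5% and 19.1% of genes below it. Cebpa was at -0.65 (-0.91 to -0.38) and -0.45 (-1.07 to 0.18), with 17.0% and 24.4% of genes below it. With library totals, 2 of 7 tested members were called higher and 0 lower in each treatment. These were Cebpb, at 1.17 (0.84 to 1.51), and Mrc1 before LPS, and Itgam, at 1.07 (0.90 to 1.25), and Mrc1, at 3.27 (1.80 to 4.74), after LPS, while 45.3% and 63.2% of all genes were called higher by that scaling.

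**Figure D5:**
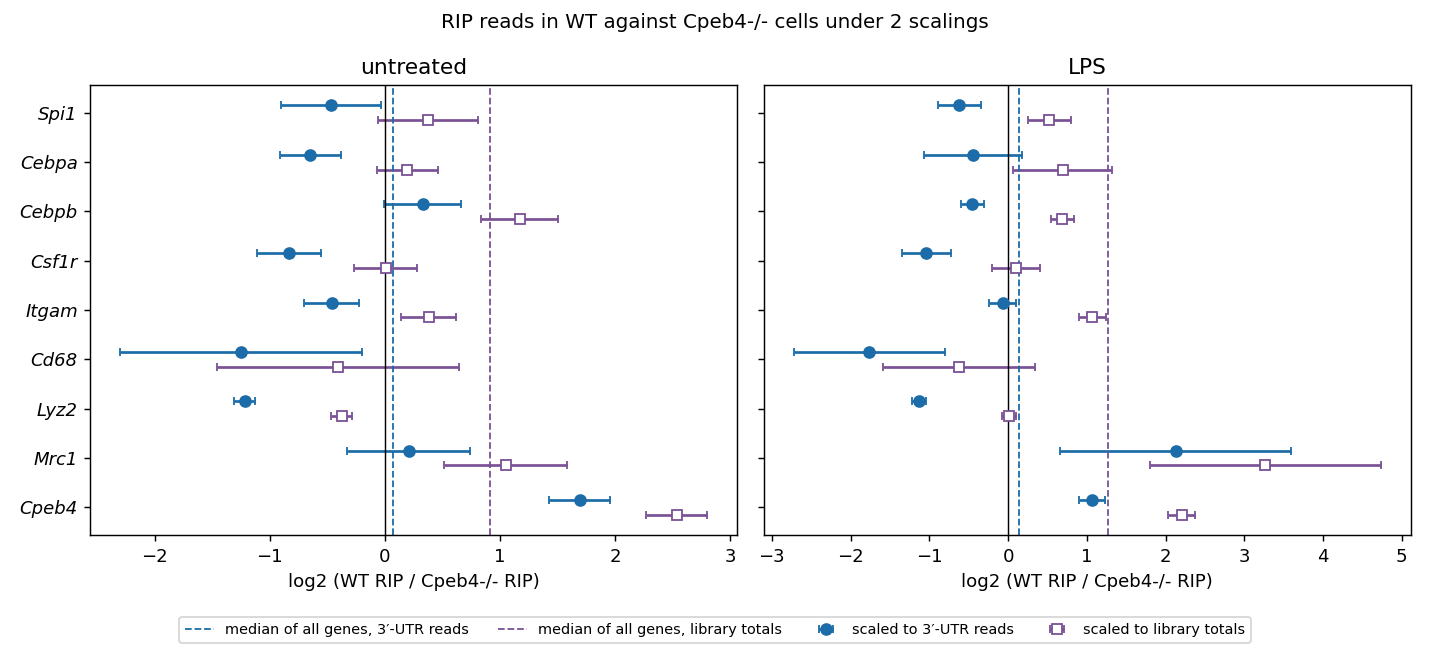
Log2 ratio of WT over Cpeb4-/- RIP (horizontal axes) for each member and Cpeb4, untreated on the left and LPS on the right, scaled to 3′-UTR reads (filled circles) or to library totals (open squares), with 95% counting intervals and the median of all genes under each scaling as a dashed line. Lyz2, Csf1r and Cd68 lie left of the median of all genes under both scalings, and Mrc1 lies right of it after LPS.

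Subtracting the WT over Cpeb4-/- ratio of the Inputs allows for the amount of each transcript. By this Input-corrected ratio, 13.7% of 3798 genes were at least 2-fold higher and 10.4% lower before LPS, and 10.5% and 13.8% of 4433 genes after LPS. Scaled to the library totals, these shares were 45.9% and 0.869% before and 59.9% and 0.451% after LPS. Before LPS, Mrc1 was called higher, at 1.06 (0.13 to 1.99), and Lyz2, at -1.88 (-2.01 to -1.76), and Csf1r, at -1.03 (-1.34 to -0.71), were called lower, 3 of the 7 tested. After LPS, 0 of 6 were higher and Lyz2, at -1.08 (-1.21 to -0.96), and Csf1r, at -1.08 (-1.43 to -0.74), were lower. Mrc1 was then at 1.66 (-0.64 to 3.96) with too few reads to be tested. The 2 lower calls after LPS were lost with library totals, at 0.11 for Lyz2 and 0.12 for Csf1r, with TMM, at -0.82 for both, and with median-of-ratios, at -0.92 for both. The untreated call of Csf1r was lost too, at -0.20, -0.86 and -0.998. With library totals Cebpb was called higher in both treatments, at 1.10 and 1.08, and Itgam after LPS, at 1.04.

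The RIP libraries repeated the Input calls after LPS for Cebpa in both genotypes. Mrc1 had ratios below 0 in both assays of both genotypes, but was called only in Cpeb4-/- Input and in WT RIP. The Cpeb4-/- Input call rests on 48 and 3 reads. In the Cpeb4-/- RIPs, Mrc1 had 34 and 3 reads and was not tested, at -4.03 (-5.52 to -2.53). In RIP, 12.8% of genes were at least 2-fold higher and 16.1% lower after LPS in WT, and 17% and 16.6% in Cpeb4-/- cells. Scaled to the library totals, they were 24.0% and 7.94% in WT and 21.8% and 12.1% in Cpeb4-/- cells. Of 7 tested members in WT, 0 were higher and 3 were lower, namely Cebpa at -3.15 (-3.53 to -2.76), Mrc1 at -2.11 (-2.57 to -1.64) and Csf1r at -1.21 (-1.47 to -0.96). Of 6 tested in Cpeb4-/- cells, Cebpb was higher, at 1.77 (1.44 to 2.09), and Cebpa, at -3.35 (-3.91 to -2.79), and Csf1r, at -1.01 (-1.33 to -0.69), were lower. Cebpb in the WT RIPs was at 0.98 (0.82 to 1.15), just under 2-fold. With library totals, TMM and median-of-ratios Cebpb was called higher in WT, at 1.5, 1.26 and 1.22, and both Csf1r calls were lost, at -0.70, -0.93 and -0.97 in WT and at -0.79, -0.76 and -0.80 in Cpeb4-/- cells. The RIPs and Inputs are separate libraries of the same cells.

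Lists of related genes gave a setting for the members. Of 33 other myeloid transcription factor genes, all with a counted 3′-UTR, 23 could be tested in untreated WT RIP over Input, and 13 were higher and 0 lower, with a median of 1.04, where 25.3% of all genes were higher and 20% lower. Spi1, Cebpa and Cebpb, at -1.08 to 0.24, were all below that median. Id2, which encodes an inhibitor of helix-loop-helix factors, had 315 RIP and 12 Input reads, at 3.76 (2.96 to 4.56). In untreated Cpeb4-/- cells Id2 was also over Input, at 2.53 (1.81 to 3.25) from 46 RIP and 22 Input reads, with overlapping intervals. Elf1, an ETS-family gene like Spi1, had 225 RIP and 14 Input reads, at 3.07 (2.32 to 3.82). Its untreated Input was lower in WT than in Cpeb4-/- cells, at -1.19 (-2.03 to -0.36) from 14 and 48 reads. In Cpeb4-/- cells the same list had 5 higher and 0 lower of 20 tested, with a median of 0.43, where 10.9% of all genes were higher and 12.7% lower. With library totals it had 1 higher and 4 lower there, with a median of -0.34. In WT over Cpeb4-/- RIP before LPS it had 5 higher and 0 lower of 23, with a median of 0.54, where 10.3% of all genes were higher and 7.22% lower. With library totals, 16 of the 23 and 45.3% of all genes were higher. Klf2, a Krüppel-like factor gene, was at 1.67 (0.82 to 2.52) with 3′-UTR scaling, from 135 and 11 reads.

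After LPS, 5 of 20 tested genes of that list were higher and 7 lower in WT Input, and 4 higher and 6 lower of 22 in Cpeb4-/- Input. A gene among the 5 had 53 reads after LPS and 0 before it, so that it was tested through the LPS library alone. Over all genes, 14.9% were higher and 12.6% lower in WT, and 13.6% and 17.4% in Cpeb4-/- cells. Hif1a, which encodes the α subunit of the hypoxia-inducible factor, was higher like Cebpb, at 2.85 and 2.55. Between genotypes, 1 of 19 tested genes of the list was lower in untreated WT Input and 1 of 23 after LPS. Of all tested genes, 1.15% were lower before and 0.656% after LPS. The list gene lower after LPS was Irf8, a monocyte and dendritic cell factor gene, at -1.07 (-1.27 to -0.86) from 308 and 511 reads.

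Of 47 other macrophage surface, phagocytic and lysosomal genes, 44 were found. In Input after LPS, 9 of 35 tested were higher and 6 lower in WT, and 8 of 34 higher and 7 lower in Cpeb4-/- cells, beside the same shares of all genes (14.9% and 12.6% in WT, 13.6% and 17.4% in Cpeb4-/- cells). Clec4e, the gene of the glycolipid receptor Mincle, had the largest ratio of the list in both, at 5.24 in WT (17 and 1393 reads) and 5.42 in Cpeb4-/- cells (23 and 1160 reads). In WT RIP over Input, 6 were higher and 14 lower of 34 before LPS, with a median of -0.42, and 4 higher and 18 lower of 36 after LPS, with a median of -0.91, where 25.3% and 23.7% of all genes were higher and 20% and 24.9% lower. In WT over Cpeb4-/- RIP scaled to 3′-UTR reads, 2 were higher and 12 lower of 31 before LPS, with a median of -0.85, and 2 higher and 15 lower of 33 after LPS, with a median of -0.74, where 10.3% and 10.2% of all genes were higher and 7.22% and 9.81% lower. With library totals the direction turned, with 8 higher and 2 lower and a median of -0.0067 before LPS, and 11 higher and 2 lower and a median of 0.40 after LPS, below the medians of all genes, 0.92 and 1.27. With 3′-UTR scaling, C1qb, the gene of a complement C1q chain, was at -2.20 (37 and 48 reads) before LPS, and Trem2, a lipid-sensing receptor gene, at -2.73 (18 and 43 reads) after LPS. Csf1r, Cd68 and Lyz2 were likewise below the median of all genes in this comparison under both scalings.

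The genes whose levels followed those of a member most closely over the 8 libraries were sought, among the 1083 genes that had 50 or more reads in all 8 libraries, by the Pearson correlation of log2(CPM + 1). They were Rab43 for Spi1 (r = 0.99), Tnfrsf1b for Cebpb (r = 0.99), Ap2a2 for Csf1r (r = 0.998), Ghitm for Itgam (r = 0.94) and Rpsa for Lyz2 (r = 0.98). Each r is the highest of 1083 and is over 8 libraries that share cells, treatments and a pull-down. Cebpa, Cd68 and Mrc1 had under 50 reads in some libraries and were not matched.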

How the data were processed

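RNA of BMDMs (WT and Cpeb4-/-, untreated or LPS, Input and anti-CPEB4 RIP) gave 8 libraries, each listed as 2 of the 16 samples, 1 for each lane. Per the study's methods, the authors aligned single-end reads to mm10 with Bowtie2 2.2.2, removed duplicates and counted the reads that overlapped each Ensembl 3′-UTR. These deposited counts sum the lanes. Whether duplicates were removed before or after lanes were joined, and whether counting used strand, is not given in the sources used here. The authors' RPKM values served only to find the library totals. The tables also hold the authors' fold changes, p-values, peak scores and CPE predictions, which were not used.

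Of 31117 rows, 495 without a symbol (at most 1.04% of reads) were left out. Reads were scaled to the column sums, which hold 3762 rows that repeat coordinates. For each gene the region with the most reads over the 8 libraries was taken, 1 read was added, and the 95% interval was computed from both counts. The 2-fold rule was run on simulated counts with planted log2 changes of 2 up or down. These counts held counting error only, so they cannot show the spread between libraries or the effect of duplicate removal. The members, lists and thresholds were chosen with earlier results of these data known. Named were the members, Cpeb4, the gene most like each member, and list genes past 2-fold with at least 50 reads that were among the 3 largest of a list in a comparison. One of these list genes is not reported here. Motifs were searched on the transcript strand of GRCm38.p6 and regions were checked against GENCODE M21. Python 3.11.15, scipy 1.17.1, pysam 0.24.0 and edgeR 4.0.16 in R 4.3.3 were used. Alternatives were library totals, TMM, median-of-ratios, totals with 1 row per set of coordinates, 0.1 reads added, minimums of 10 and 200 reads, 1.5-fold, the longest region, summed regions and the study's own thresholds on a chi-square test without the peak score.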

Additional observations from a re-analysis of the deposited data

Results flagged for a closer look

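Lyz2, the lysozyme M gene, lay on opposite sides of its Input in the genotypes. Its log2 ratio of RIP over Input was -0.70 in untreated WT and 1.19 in untreated Cpeb4-/- cells, and -0.48 and 0.61 after LPS. The difference was not tested, since each genotype was 1 library per assay. Lyz2 held between 0.896 and 1.37 reads per start position in the 8 libraries. The Cpeb4-/- RIPs, with 467696 and 871482 3′-UTR reads, were the smallest libraries. The part of duplicate removal in these ratios was not tested. Scaled to library totals, the ratios were -0.63 and 0.42 before LPS and 0.04 and -0.08 after LPS, so that the direction held before LPS only, and both values after LPS lay within counting error of 0.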

How the results depend on the processing

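Scaled to library totals, the median log2 ratio over the 8 members moved by more than counting error in 8 comparisons. It was 0.28 (from -0.56) and 0.61 (from -0.54) for WT over Cpeb4-/- RIP before and after LPS, 0.25 (from -0.58) and 0.82 (from -0.38) for the Input-corrected ratio, -0.96 and -0.85 for RIP over Input in Cpeb4-/- cells, -0.11 for RIP over Input in WT after LPS, and -0.19 for the LPS change of WT RIP. TMM moved the last of these, to -0.43 from -0.71. Lyz2 and Csf1r after LPS changed sign with library totals, to 0.013 and 0.10 for the RIPs and to 0.11 and 0.12 after Input correction. These shifts follow from the totals, which move all genes alike. The other 131 medians, and the medians of the Inputs under all alternatives, moved by less. Of 1134 values of single members, 87 moved by more than their counting error and a further 4, called ones, changed sign, together 55 with library totals, 24 with TMM, 11 with median-of-ratios and 1 with summed regions. Called or not, 49 changed sign, 29 with library totals, 10 with TMM and 10 with median-of-ratios. A shorter Csf1r region, chosen after seeing the data, moved none of the 14 Csf1r values by that much. The Input calls of Cebpa and Cebpb after LPS held under all alternatives run on the Inputs. With TMM, 0 members were called lower in WT than in Cpeb4-/- RIP after LPS. By the study's thresholds on any region, which admit ratios smaller than 2-fold, 4 members were lower before and 4 after LPS. Of all genes, 11.4% of 8086 were lower before and 17.5% of 8318 after LPS by these thresholds. In the other direction, higher in WT, 0 members passed before LPS and 1, Mrc1, after LPS. The shares of all genes in that direction were 6.91% and 10.99%. Among all genes, library totals made 71.2% of calls in WT RIP over Input after LPS higher ones, and 4.97% and 7.32% in Cpeb4-/- cells. Of 28 counts of genes called, 25 moved by over 1.5 times with 1.5-fold (1.38 to 8.61 times the count), 26 with a minimum of 10 reads (1.44 to 10.6 times), 28 with 200 reads (0.0192 to 0.557 times), 16 with library totals (0.0274 to 6.23 times), 6 with TMM (0.574 to 1.77 times), 4 with summed regions (1.06 to 2.5 times) and 1 with median-of-ratios (0.673 to 1.53 times). No paired analysis was possible because each group is 1 library, and for the same reason no library could be left out. Mrc1 and Cd68 rest on few reads, and Lyz2 on a region among the 4 with the most reads per start position in every library.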
